A study of Mus musculus with 2 samples.

Results

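The non-peptide markers of cortical interneuron subclasses were read in RNA precipitated with the tagged ribosomes of Drd2-expressing cells of mouse medial prefrontal cortex. They are Pvalb, Calb2, Htr3a, Reln, Ndnf, Lamp5, Nos1, Prox1 and Sp8. A probe set, the group of probes that reports a transcript on the array, was taken for a gene where the platform annotation named that gene alone. By this rule all 9 genes were found, each with 1 probe set, among 22180 named genes. No probe set named any of them together with another gene.

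The mice carried D2Cre, a Cre driver for the dopamine D2 receptor gene, and RiboTag, an allele from which Cre-expressing cells make a ribosomal protein with a haemagglutinin (HA) tag. Adult medial prefrontal cortices were pooled from 5 mice, tagged ribosomes were precipitated with anti-HA antibodies, and their RNA was hybridised to 2 arrays. The arrays are labelled as technical replicates, form 1 group and are taken to share that pool, so their spread is technical and no test between groups or animals exists. No unprecipitated RNA and no mock precipitation was analysed here. The values therefore hold no enrichment over whole cortex, and a gene with signal need not be one that the tagged cells express. Recombination by Cre is permanent, so cells that made Cre only earlier in life keep the tag. More cells of a type and more RNA per cell cannot be told apart in such a pool either.

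Cortical interneurons make GABA and arise mainly in the medial and caudal ganglionic eminences of the embryonic forebrain. Parvalbumin and somatostatin cells come from the medial eminence. VIP cells, many calretinin cells and most layer 1 neurogliaform cells come from the caudal eminence and share the serotonin receptor gene Htr3a. The neuropeptides that also mark these classes are kept apart here, and the 9 genes encode calcium buffers, a receptor, secreted and membrane proteins, an enzyme and transcription factors.

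All 9 markers gave signal above background on both arrays, against 60.3% of all named genes. As background served, on each array, the 95th percentile of the 1390 olfactory or vomeronasal receptor genes, at a log2 signal of 5.62 on array 1 and 5.67 on array 2. Without these receptor genes, which set the threshold, the share was 64.1% of 20790 named genes. Lamp5, Reln and Ndnf stood more than 4 log2 units over it on average, whereas Calb2 and Sp8 stood less than 1 unit over it. The median log2 signal of the markers was 8.24, beside 6.36 over all named genes. At the 99th percentile of the same receptor genes, 6.64 on both arrays, 7 of the 9 markers passed, against 44.9% of named genes. A further limit, here called out-of-tissue, was the 95th percentile of 31 testis, liver and skeletal muscle genes, at 7.28 and 7.10, and again 7 markers passed it, against 38.0% of named genes. All 9 also exceeded the median over all probe sets (5.80 and 5.81), against 57.5% of named genes. This limit lay between background and the 99th percentile. Calb2 and Sp8 failed the 99th percentile and the out-of-tissue threshold, together called the stricter thresholds below. Probes differ in how strongly they bind, so the distance to a threshold places a gene against background and does not rank the genes by abundance.

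**Figure D1:**
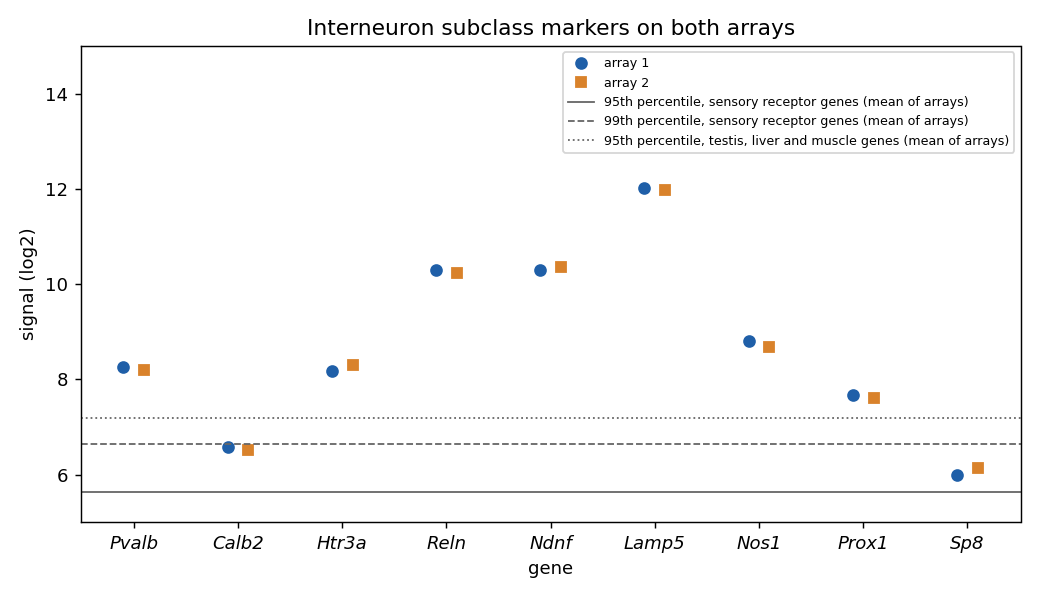
Log2 signal of each marker on array 1 (circles) and array 2 (squares), with horizontal lines for 3 background thresholds, each the mean of its values on the arrays. The points of a gene lie close together, 7 genes lie over all lines, and Calb2 and Sp8 lie between the lowest line and the middle line.

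The calcium-binding markers gave unequal evidence of signal. Parvalbumin, encoded by Pvalb, is a calcium buffer of fast-spiking basket and chandelier cells. Its log2 signal was 8.25 on array 1 and 8.20 on array 2, or 8.22 ± 0.04 (SD, n = 2 technical arrays). This placed Pvalb 2.58 log2 units over background on average and 1.04 units over the out-of-tissue threshold. Both arrays were thus well clear of every threshold used. Calretinin, encoded by Calb2, is a related buffer of bipolar interneurons, and Cajal-Retzius cells make it too. Calb2 was at 6.57 and 6.52, or 6.54 ± 0.04, which is 0.90 units over background and short of the 99th percentile by 0.07 units on array 1 and 0.12 on array 2. Its signal was thus repeatable but close to the upper end of the receptor genes.

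Relatives of these buffers differed as well. Calb1, the gene of calbindin, which many upper layer excitatory neurons share with interneurons, was at 11.74 and 11.70. Ocm, the gene of oncomodulin, the other parvalbumin of mammals and known from cochlear hair cells, was not above background at 5.61 and 5.52. Pvalb is also a gene of fast skeletal muscle, so muscle genes were read beside it. Of 10 measured muscle genes, 5 exceeded background. These were the muscle actin gene Acta1 at 7.89 and 8.08, the fast troponin genes Tnni2 at 6.57 and 6.52 and Tnnt3 at 5.91 and 6.0, Actn3, which encodes the actinin of fast fibres, at 6.12 and 6.18, and the creatine kinase gene Ckm at a mean of 5.86. The other 5 did not, among them the fast myosin genes Myh4 at 4.57 and 4.81, Myh1 at 4.79 and 4.97 and Mylpf at 3.84 and 3.81. Acta1 was the muscle gene over the out-of-tissue threshold, which it helped to set, and the part of muscle RNA in the Pvalb signal was not tested.

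The other genes of the parvalbumin class all gave signal above background, 7 of 7 measured, and all 7 were over the out-of-tissue threshold. Syt2, the synaptotagmin of fast inhibitory terminals, was at 9.11 and 8.97. Kcnc1 and Kcnc2, potassium channel genes that allow fast firing, were at 9.81 on both arrays and at 9.65 and 9.53. Cox6a2, a subunit of cytochrome oxidase, was at 9.61 and 9.71. Of these, the Kcnc genes and Syt2 are also made by other neurons, so their signal is not specific to parvalbumin cells. Whether the Cox6a2 signal came from parvalbumin cells, or in part from muscle RNA, was not tested either.

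Genes listed with calretinin, VIP and cholecystokinin cells were above background in 8 of 8 cases, and 7 passed the stricter thresholds. Vip was at 9.56 and 9.50, the peptide gene Cck at 12.89 and 12.93, the cannabinoid receptor gene Cnr1 at 8.83 and 8.87, and Crh at 7.81 and 7.75. The exception under the stricter thresholds was Chat, which encodes choline acetyltransferase of some VIP cells, at 6.03 and 6.0. Calb2 and Chat were thus the genes of this class nearest to background, while its peptide genes were clear of it. Cck and Penk, at 12.09 and 12.12, are also made by excitatory and striatal neurons respectively.

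Htr3a encodes the obligatory subunit of the ionotropic serotonin receptor, which in cortex is carried by interneurons of the caudal eminence. It was at 8.17 on array 1 and 8.31 on array 2, or 8.24 ± 0.10, and exceeded background by 2.60 and the out-of-tissue threshold by 1.05 log2 units on average. Htr3b, the gene of a partner subunit that forms channels only together with Htr3a, was at 5.19 and 5.27 and was not above background. The subunit pair was thus split by the threshold, with both arrays of Htr3a above it and both of Htr3b below it.

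The markers of neurogliaform and other layer 1 cells were far above background. Reln encodes reelin, a secreted glycoprotein that guides neuronal positioning in development and is made by interneurons in the adult cortex. Its signal was 10.30 and 10.23, or 10.26 ± 0.05, which is 4.62 log2 units over background. Ndnf, which encodes a secreted protein and marks layer 1 interneurons, was at 10.30 and 10.36, or 10.33 ± 0.04, and 4.69 units over background. Lamp5, which encodes a brain member of the lysosome-associated membrane protein family, was at 12.01 and 11.98, or 11.995 ± 0.02, and 6.35 units over background. Each of these genes also exceeded the out-of-tissue threshold by more than 3 log2 units on both arrays. Lamp5 is made by some cortical excitatory neurons too, and the excitatory markers Slc17a7, at 12.28 and 12.32, and Camk2a, at 12.41 and 12.38, gave strong signal in the same RNA. Their part in the Lamp5 signal was not tested.

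All 8 other genes of the neurogliaform list passed every threshold used. Npy was at 12.04 and 12.10, the transcriptional regulator gene Id2 at 11.41 and 11.38, the chemokine gene Cxcl14 at 10.61 and 10.56 and the receptor kinase gene Kit at 10.56 and 10.45. The gene of this list with the lowest signal, Egln3, was at 8.26 and 8.18 and still clear of the out-of-tissue threshold. Npy is shared with other interneurons, and the part of other cells in the signal of this list was not tested.

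Reelin acts through the lipoprotein receptors encoded by Lrp8 and Vldlr and the adaptor encoded by Dab1. All 3 genes passed every threshold, with Lrp8 at 8.90 and 8.92, Vldlr at 8.92 and 8.69 and Dab1 at 8.69 and 8.62. Reelin and calretinin are also products of Cajal-Retzius cells, the early neurons of layer 1. Of 5 Cajal-Retzius markers, 3 were above background and 0 passed the 99th percentile of receptor genes. Trp73, which encodes p73 and defines these cells in cortex, was at 6.40 and 6.33, Lhx1 at 6.15 and 5.94 and Ebf3 at 6.06 on both arrays. Lhx5, at 5.05 and 4.84, and Nhlh2, at 5.65 and 4.92, did not exceed background on both arrays. Reln was thus 3.62 log2 units over the 99th percentile, which Calb2 and these markers did not pass. Their part in either signal was not tested.

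Among relatives of Lamp5, the general lysosomal genes Lamp1 and Lamp2 were at 11.40 and 11.35 and at 8.85 and 8.83. Lamp3, which is known from dendritic cells and lung, was not above background at 4.70 and 4.17.

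Nos1, the gene of neuronal nitric oxide synthase, is strong in long-range nitrergic cells and weaker in some neurogliaform cells. It was at 8.80 and 8.68, or 8.74 ± 0.08, which is 3.10 log2 units over background and 1.55 over the out-of-tissue threshold. The inducible synthase gene Nos2 was not above background at 5.41 and 5.59. The endothelial synthase gene Nos3 was at 6.80 and 6.90, above background but under the out-of-tissue threshold. Of the synthase genes, Nos1 alone thus passed every threshold used.

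Of the genes that mark nitrergic cells, 3 of 4 were above background. Sst was at 13.67 and 13.74 and Npy, given above, also belongs here, but both peptides are shared with other interneurons. Tacr1, the substance P receptor gene of nitrergic cells, was at 6.68 and 6.53, over background by 0.96 units but not over the 99th percentile on both arrays. Chodl, a selective marker of the long-range nitrergic type, was not above background at 4.30 and 4.57. Nos1 signal was thus present beside Chodl signal that lay under the threshold on both arrays.

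Downstream of nitric oxide, the subunits of its receptor, soluble guanylate cyclase, gave signal on both arrays. Gucy1a1 was at 10.97 and 10.89, Gucy1a2 at 9.68 and 9.62 and Gucy1b1 at 11.78 and 11.70. The cyclic GMP-dependent kinase genes Prkg1 and Prkg2 were at 8.05 and 7.81 and at 7.0 and 6.94. The adaptor gene Nos1ap averaged 8.54 ± 0.03 over probe sets at 6.88 and 10.20. With the other synthases, 7 of 8 genes of this pathway were above background and 5 were over the out-of-tissue threshold.

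The transcription factor markers differed in their distance to background. Prox1 encodes a homeodomain factor that interneurons of the caudal eminence keep into adulthood, and dentate granule cells and lymphatic endothelium make it too. It was at 7.68 and 7.60, or 7.64 ± 0.06, which is 2.00 log2 units over background but only 0.45 over the out-of-tissue threshold. Sp8 encodes a zinc finger factor of caudal eminence and olfactory bulb interneurons. It was at 5.99 and 6.14, or 6.06 ± 0.11, which is 0.42 units over background and short of the 99th percentile by 0.58 units on average. Sp8 was the marker closest to background on both arrays. Prox2, a relative of Prox1, was not above background at 5.02 and 4.82, and the Sp8 relative Sp9 was at 6.32 and 6.05, under the 99th percentile as Sp8 was.

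All 5 other genes of the caudal eminence list were above background, and 4 were over the out-of-tissue threshold, Sp9 being the exception. Nr2f2 and Nr2f1, the COUP transcription factor genes, were at 8.04 and 8.16 and at 7.95 and 7.86, and Npas1 at 8.30 and 8.35. For the medial eminence, 5 of 6 measured genes were above background. Lhx6, which specifies parvalbumin and somatostatin cells, was at 8.79 and 8.87, Sox6 at 7.84 and 7.96 and Satb1 at 9.18 and 9.09. Nkx2-1, which acts in progenitors and is turned off in most cortical interneurons, exceeded background on array 1 only, at 5.86 and 5.42. Maf averaged 7.28 over probe sets at 5.68 and 8.88, and its mean did not pass the out-of-tissue threshold on both arrays. Genes of both eminences thus gave signal beside Prox1, Htr3a and Pvalb, and a difference between them was not tested, since their probe sets differ.

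Over the 7 lists of interneuron classes, eminences and general GABAergic genes, 41 of 43 other genes were above background, Chodl and Nkx2-1 being the exceptions. At the 99th percentile of receptor genes 38 passed, and at the out-of-tissue threshold 37. General GABAergic genes exceeded background in 6 of 6 cases, among them Gad1 at 8.78 and 8.91, Gad2 at 11.50 and 11.49 and Dlx2 at 8.38 and 8.66. Slc32a1, the vesicular GABA transporter gene, averaged 8.97 ± 0.10 over probe sets at 7.16 and 10.78.

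Drd2 itself was at a mean of 10.74 ± 0.06, and all 6 pan-neuronal genes passed every threshold. Marker genes of cells other than interneurons gave signal in the same RNA, and whether those cells carried the tag was not tested. All 5 measured excitatory markers passed every threshold, as did 5 of 6 measured genes of striatal projection neurons, Isl1 at 5.34 and 5.49 not being above background. Of glial and vessel genes, 5 of 5 oligodendrocyte, 6 of 6 astrocyte, 6 of 6 microglia and 6 of 6 endothelial and mural genes exceeded background. Their counts over the out-of-tissue threshold were 3, 4, 2 and 0, and their list medians were 7.59, 7.61, 6.76 and 6.82. The part of RNA from cells without the tag in the signal of the interneuron markers was not tested. At the 99th percentile, which Calb2 and Sp8 did not pass, the counts were 4, 6, 3 and 3.

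**Figure D2:**
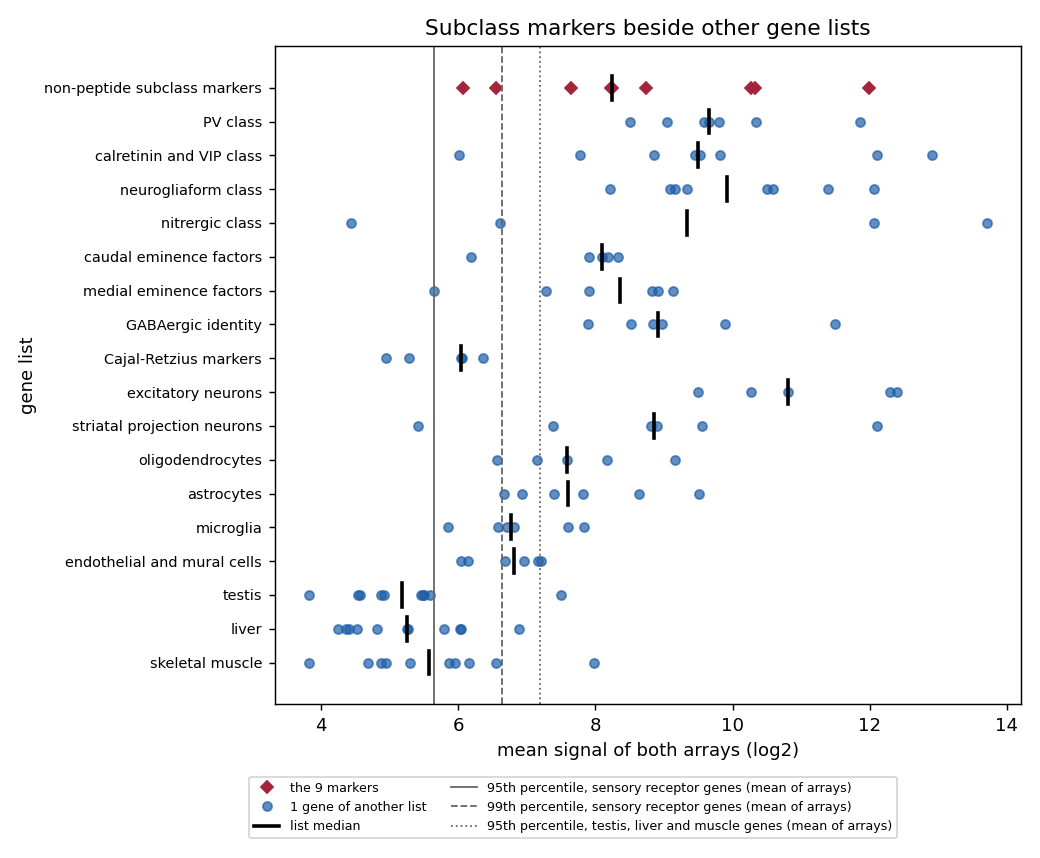
Mean log2 signal over both arrays of every measured gene (points) in the 9 markers (diamonds, top line) and in other lists, with the list median as a black bar and 3 background thresholds as vertical lines. The markers span 6.06 to 11.995 with a median of 8.24. Most testis, liver and muscle genes and all Cajal-Retzius genes lie under the middle line, and 5 of 10 muscle genes lie over the lowest line.

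The arrays repeated the markers closely. The absolute difference between arrays ran from 0.03 log2 units for Lamp5 to 0.15 for Sp8, with a median of 0.07 over the markers and 0.13 over all probe sets. Array 1 was higher for 6 markers, and array 2 for Htr3a, Ndnf and Sp8. Spread shrank as signal rose: the SD of the difference was 0.24 for probe sets with a mean of 5 to 7, 0.156 at 7 to 9, 0.115 at 9 to 11 and 0.10 at 11 or more. For all 9 markers the difference was smaller than the SD of its own band, Htr3a coming nearest with 0.14 against 0.156. Most probe sets of each band lay inside that SD too, so this does not set the markers apart. Over all probe sets the median absolute difference was 0.15, 0.10, 0.08 and 0.06 in these bands. Htr3a and Nos1, at 0.14 and 0.12, were over the median of their band, 0.10. The distance of Sp8 to background on its lower side, 0.37 units, exceeded its difference between arrays, and so did that of Calb2, 0.85 units. For Calb2 the shortfall from the 99th percentile, 0.10 units on average, was smaller than the spread of 0.24 in its band, so its place relative to that threshold is not settled by these arrays.

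**Figure D3:**
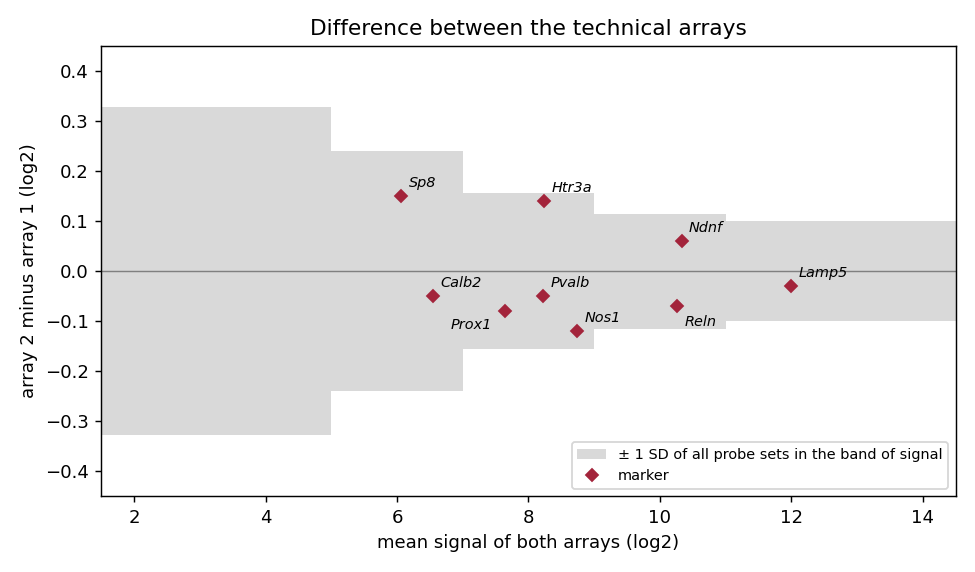
Difference between the arrays (array 2 minus array 1, log2) against the mean signal of both arrays for each marker (diamonds), with the grey band showing 1 SD of the difference over all probe sets of similar signal. Every marker lies inside the band, as do most probe sets, and the band narrows from 0.327 under a signal of 5 to 0.10 at 11 or more.

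The start regions of the markers differed in base composition, which the choice of genes did not use. RefSeq start windows (GRCm38.p6) were at hand for 6 of the 9 genes, with 11 windows in all, and the 250 bases before each start were read. Windows of Reln and Pvalb are shown because they span much of this range and because Pvalb has alternative starts of different composition. CpG dinucleotides are in capitals, and each sequence is written 5′ to 3′ on the strand of its gene, which is the minus strand for both.
Reln, chr5:22344706-22344955: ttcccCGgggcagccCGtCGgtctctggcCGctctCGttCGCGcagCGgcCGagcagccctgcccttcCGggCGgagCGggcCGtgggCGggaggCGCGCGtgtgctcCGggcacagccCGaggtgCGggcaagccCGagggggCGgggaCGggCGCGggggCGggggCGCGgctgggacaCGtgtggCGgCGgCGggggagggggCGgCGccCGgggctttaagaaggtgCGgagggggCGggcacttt
Pvalb, chr15:78206401-78206650: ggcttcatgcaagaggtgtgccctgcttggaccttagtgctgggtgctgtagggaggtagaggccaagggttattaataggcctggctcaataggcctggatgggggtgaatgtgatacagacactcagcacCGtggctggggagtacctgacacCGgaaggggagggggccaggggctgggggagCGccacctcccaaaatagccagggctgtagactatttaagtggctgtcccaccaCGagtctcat
Pvalb, chr15:78204238-78204487: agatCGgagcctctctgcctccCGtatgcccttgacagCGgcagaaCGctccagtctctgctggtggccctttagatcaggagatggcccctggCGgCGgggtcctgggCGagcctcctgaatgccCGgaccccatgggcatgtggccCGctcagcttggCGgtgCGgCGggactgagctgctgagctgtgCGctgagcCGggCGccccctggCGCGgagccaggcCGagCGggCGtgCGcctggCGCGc
The Reln window held 37 CpG and 80.0% G and C, and 97.8% of the 32851 windows of all genes held fewer CpG. The upstream Pvalb window held 4 CpG and 58.4% G and C, while the window at the start further into the gene held 23 CpG. Over all windows the medians were 6 CpG and 52.4% G and C. Of the 11 windows of the markers, 5 held more CpG than that median and 6 did not, the Lamp5 windows holding 3 and 1. The TATA box letters TATAAA, searched on both strands, were in 2 of the 11 windows, one of Prox1 and one of Sp8, and in 12.4% of all windows. In the Prox1 window they were on the opposite strand only, and their first place in the Sp8 window was at -230 from the start. Whether they act as a TATA box was not tested. The array values do not tell which start was in use, so no signal was set against these features.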

How the data were processed

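Tagged ribosomes were precipitated from a pool of 5 adult prefrontal cortices, and their RNA was extracted with Trizol and a column and labelled with the Affymetrix WT Plus kit, per the labels' protocols. The authors deposited a value for every probe set on each array, and the range of these values points to a log2 scale. For the log base, background correction, summarisation and normalization, the method is not given in the sources used here. Array quartiles are 4.50, 5.80 and 7.79 on array 1 and 4.52, 5.81 and 7.79 on array 2. Of 34472 probe sets, 23521 named 1 gene, 1814 named several and were not taken for any gene, and 9137 are unnamed here. Symbols were checked by gene identifier against RefSeq (GRCm38.p6), with 0 changes. Where a gene had several probe sets, their mean was used. Calls above background required both arrays to exceed the 95th percentile of sensory receptor genes. Scanner files were not used here, so this threshold stands in for detection p-values.

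The members and lists were chosen with earlier results of these data known. Every member was named, with all pathway genes and relatives, the first 4 measured genes of other interneuron lists and any gene on the minority side of those lists. For lists of other cells and tissues, where the same rule was set, mostly counts are given. Other genes named were chosen after their values were seen. List genes that no probe set names alone were not analysed here. Values are mean ± SD over 2 technical arrays, no test was made, and the number of arrays limits the precision. Alternatives were other thresholds, the highest or lowest probe set of a gene, quantile normalization, and either array by itself. The procedure was tested on simulated data. The genes scored there lay further from background than Calb2 and Sp8, so that test does not bear on the calls of these markers. Python 3.11.15, pandas 2.3.3 and numpy 2.4.6 were used.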

Additional observations from a re-analysis of the deposited data

How the results depend on the processing

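All 9 markers stayed above background with the median of all probe sets as the threshold (passed by 57.5% of named genes). They also did so with the highest or lowest probe set of each gene and after quantile normalization. Either array alone gave 9 too, but the main call required both arrays, so that count was fixed in advance. At the 99th percentile of receptor genes and at the out-of-tissue threshold the count was 7, Calb2 and Sp8 being lost. The count over the 43 other interneuron genes was 41 and ranged from 37 to 42 under the same alternatives. Each marker has 1 probe set, so the choice of probe set could not move its value, and could move its call only through the threshold. Quantile normalization moved no marker by more than 0.003 log2 units. Of 168 counts for single lists under the alternatives, 12 moved by more than 1.5 times, all in the Cajal-Retzius, oligodendrocyte, microglia, vessel, testis, liver and muscle lists. The out-of-tissue threshold rests on 31 genes, of which 10 exceeded the receptor threshold themselves: Odf1, the testis gene that did so, with probe sets at 4.98 and 10.02, the liver genes Apoa1, Apoa2, Hp and Cps1, and the 5 muscle genes named beside Pvalb. No paired analysis was possible because the arrays form 1 group. Signal near the receptor genes, as for Calb2 and Sp8, cannot be told from background by these arrays at the stricter thresholds.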
